A study of Mus musculus with 6 samples.

Results

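The genes described here are the 10 that encode the cyclins, kinases and CIP/KIP inhibitors of the G1 phase of the cell cycle. They were chosen by gene symbol from the 18152 genes of the expression table, by a rule that used no measured value, although the set was proposed when earlier results of these data were known. The 3 D-type cyclins were *Ccnd1*, *Ccnd2* and *Ccnd3*, the 2 E-type cyclins *Ccne1* and *Ccne2*, the 2 kinases *Cdk4* and *Cdk6*, and the 3 inhibitors *Cdkn1a*, *Cdkn1b* and *Cdkn1c*. All 10 passed the filter on low counts, which kept 14131 genes.

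RNA-seq was carried out on the inner enamel epithelium (IEE) of the mandibular first molar at E18.5, the late bell stage, when the IEE folds into cusps and its cells leave the cycle to become ameloblasts. *Kdf1 fl/fl* mice served as the control with 3 libraries, and another 3 came from mice that also carried *K14-Cre*, here called cKO as in the sample labels (*K14-Cre;Kdf1 fl/fl*). Both lines were on a C57BL/6J background. Both genotypes carried the floxed *Kdf1* alleles, and Cre recombinase driven by the keratin 14 promoter deleted the gene in epithelial cells of the latter only, so that *K14-Cre* without the floxed alleles was not among the groups. The sample labels call the controls WT, and the genotypes are those named in the study's methods. The IEE was cut from frozen head sections by laser capture microdissection, which can take in cells from the border of the captured area. The libraries held between 14713918 and 16675133 estimated reads. *Kdf1* had 836, 731 and 835 reads in control replicates 1, 2 and 3 and 0, 1 and 0 in those of cKO, as the labels say. Replicate 1 of cKO stood apart in markers of endothelium, immune cells and bone. The values of *Ccnd3*, *Cdk6*, *Cdkn1c* and *Plagl1* are also given without this library.

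In G1, a D-type cyclin binds CDK4 or CDK6, and the kinase phosphorylates the retinoblastoma protein RB, which then lets go of E2F transcription factors. E2F switches on the E-type cyclins, which work with CDK2, and the genes of DNA replication. The CIP/KIP proteins p21 (*Cdkn1a*), p27 (*Cdkn1b*) and p57 (*Cdkn1c*) bind cyclin and kinase together and hold back CDK2, and in the developing tooth p21 is a known feature of cells that have stopped dividing, such as those of the enamel knot.

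The level of each gene is given in TPM, a unit that is scaled by transcript length and allows genes to be set side by side. *Cdk4* was the most abundant of the 10 in both groups, with a mean of 620 TPM in control and 625 TPM in cKO libraries. In the control group it was followed by *Cdkn1a* (361 TPM) and *Ccnd1* (263 TPM), whose library ranges overlapped. Then came *Ccnd2* (111 TPM), *Cdkn1c* (93.9 TPM), *Cdkn1b* (91.0 TPM) and *Ccnd3* (87.5 TPM), each overlapping with its neighbour in this order. *Ccne1* (15.3 TPM), *Ccne2* (8.52 TPM) and *Cdk6* (4.21 TPM) were the lowest, and no library range overlapped between neighbours among these 3. In the cKO group the order after *Cdk4* was *Cdkn1a* (193 TPM), *Cdkn1c* (184 TPM), *Ccnd1* (167 TPM), *Ccnd3* (139 TPM) and *Ccnd2* (120 TPM), and the ranges of neighbours overlapped throughout these 5. The range of *Cdkn1b* (92.8 TPM) did not overlap with that of its neighbour *Ccnd2*, but it did with those of *Ccnd3* and *Cdkn1c*. *Ccne1* (12.4 TPM) was below every gene named before it in all libraries. *Ccne2* (7.48 TPM) and *Cdk6* (6.65 TPM) overlapped with each other, and *Ccne2* overlapped with *Ccne1*.

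**Figure D1:**
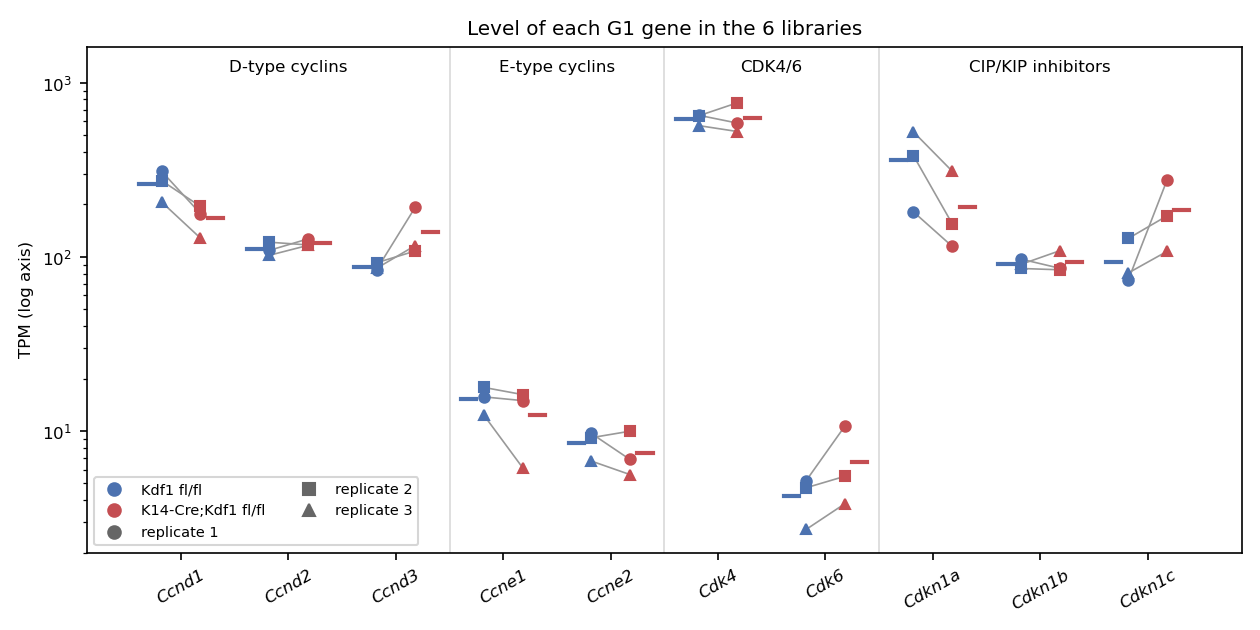
Level of the 10 genes in each of the 6 libraries, in TPM on a log axis. Blue symbols are control (Kdf1 fl/fl) and red symbols cKO (K14-Cre;Kdf1 fl/fl) libraries, the shape gives the replicate number, grey lines join equal numbers and horizontal bars are group means. The groups did not overlap for *Ccnd1* and *Ccnd3*, and the lines of *Cdkn1a* run down in all 3 pairs although its groups overlap.

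To compare the groups, log2 fold changes of cKO over control were fitted on the estimated counts with edgeR's quasi-likelihood test across all 14131 genes, with Benjamini-Hochberg adjustment over them. The study's methods ask for a log2 fold change of 1 or more in either direction together with an adjusted p no higher than 0.05. In the edgeR fit this criterion was met by 61 genes (0.432%) and by 0 of the 10 G1 genes. The methods name no test, and the number depended on it. It was 980 by DESeq2 and 6 by limma-voom, with 0 of the 10 in each. By edgeR without the fold change, 77 genes (0.545%) passed, and again 0 of the 10. At an unadjusted p of at most 0.05 there were 3 of the 10, *Ccnd1*, *Ccnd3* and *Cdkn1c*, against 24.5% of all genes, so the share among the G1 genes was close to the background. This count of 3 was 1 without control replicate 3 (6.75% of all genes lower and 6.91% higher) and 5 without cKO replicate 3 (13.5% and 16.5%). By DESeq2, *Ccnd1* and *Cdkn1c* passed an adjusted p of at most 0.05, as did 12.6% of all genes. The pairing of libraries by replicate number was read from the data only and was uncertain. Equally numbered libraries correlated at 0.135, 0.324 and 0.499 after removal of the group means, and control 2 with cKO 1 at 0.144. A fit with the replicate number as a block was set beside the fit without it, and calls made only with the block depend on this pairing. With the block, 2 of the 10 genes had an adjusted p of at most 0.05, *Ccnd1* and *Cdkn1a*, both lower in cKO, against 9.87% of all genes called and 4.44% called lower, and with the block in DESeq2 it was *Ccnd1*, *Cdkn1a* and *Cdkn1c*, against 14.5%. Of the 10, 7 lay on the same side of the control in all 3 pairs, against 52.7% of all genes. The 7 included *Ccnd2*, which was nearly level in pair 2 with a CPM ratio of 1.00.

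**Figure D2:**
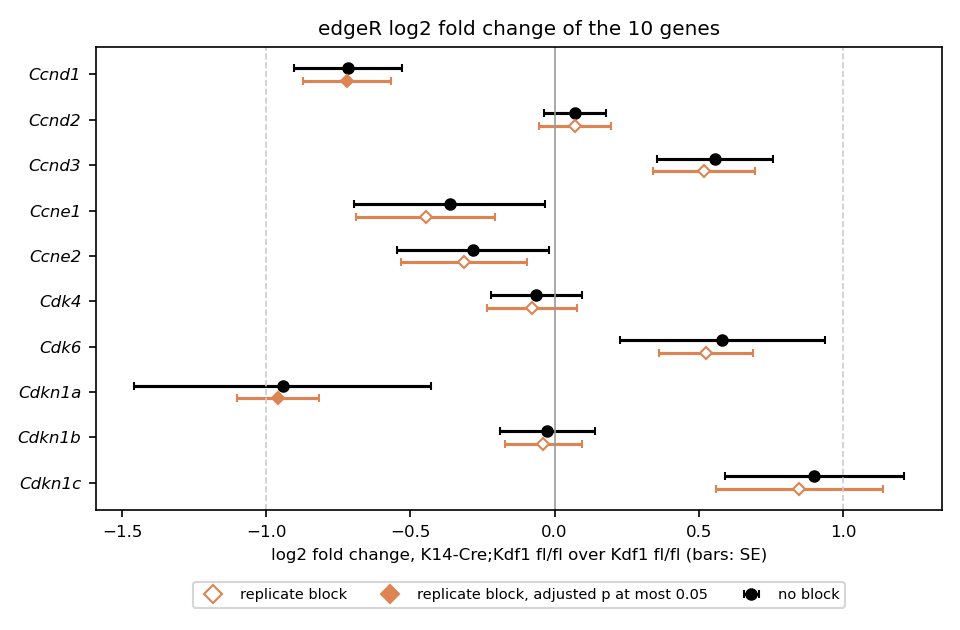
Log2 fold change of cKO over control for the 10 genes, with bars of 1 SE. Black circles are the edgeR fit without the block, orange diamonds the fit with the replicate block, filled where the adjusted p was at most 0.05 (*Ccnd1* and *Cdkn1a*), and dashed lines mark a log2 fold change of 1 in either direction.

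Among the D-type cyclins, *Ccnd1* was lower and *Ccnd3* higher in the cKO libraries without overlap between groups, and the groups of *Ccnd2* overlapped. *Ccnd1*, which encodes cyclin D1, measured 309, 273 and 206 TPM in replicates 1, 2 and 3 of control and 177, 195 and 128 TPM in those of cKO. All 3 cKO libraries were below the lowest control. The means were 263 ± 52.3 and 167 ± 34.5 TPM (SD, n = 3), a ratio of 0.634. In the edgeR fit the log2 fold change was −0.72 (SE 0.19), with an unadjusted p of 0.0063 and an adjusted p of 0.0896, the lowest p of the 10 genes. With the replicate block the log2 fold change was also −0.72 and the adjusted p by edgeR 0.0348, and DESeq2 gave an adjusted p of 0.00934. Within the pairs, CPM in cKO was 0.515, 0.736 and 0.591 times that of the control with the same number. In bulk RNA, fewer cells that express a gene and less of its RNA per cell cannot be told apart.

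*Ccnd3*, encoding cyclin D3, measured 84.2, 92.4 and 85.8 TPM in control libraries and 192, 108 and 116 TPM in cKO libraries. The lowest cKO library was above the highest control, but replicate 1 stood far above the other two of its group. The log2 fold change in the edgeR fit was 0.56 (SE 0.20), with an unadjusted p of 0.0264 and an adjusted p of 0.152. Without cKO replicate 1 it was 0.31. Non-overlapping groups were found for 2 of the 10 genes, *Ccnd1* and *Ccnd3*, against 30.7% of all genes. *Ccnd2*, encoding cyclin D2, measured 109, 121 and 102 TPM in control and 127, 117 and 116 TPM in cKO libraries. Its groups overlapped and its log2 fold change was 0.07 (SE 0.11), the smallest SE of the 10 genes, with an adjusted p of 0.723 by edgeR.

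The deposited counts of *Ccnd1*, *Ccnd3* and *Ccne2* included values that were not whole numbers, so that part of their reads had been assigned in fractions. Of the 10 genes, 6 had an entry in the RefSeq promoter table (*Cdk6*, *Cdkn1b*, *Ccne1*, *Cdk4*, *Cdkn1a* and *Ccnd3*), with 8 start sites in all. The 250 bases before a start site are shown for 1 gene that was higher and 1 that was lower in cKO, each at the start site with 2 GC boxes, *Ccnd3* at its first (GRCm38.p6, plus strand, chr17:47504801-47505050) and *Cdkn1a* at its second (GRCm38.p6, plus strand, chr17:29093519-29093768). They are written 5′ to 3′ with the start site after the last base, and capitals mark the GC box GGGCGG on either strand.
*Ccnd3*: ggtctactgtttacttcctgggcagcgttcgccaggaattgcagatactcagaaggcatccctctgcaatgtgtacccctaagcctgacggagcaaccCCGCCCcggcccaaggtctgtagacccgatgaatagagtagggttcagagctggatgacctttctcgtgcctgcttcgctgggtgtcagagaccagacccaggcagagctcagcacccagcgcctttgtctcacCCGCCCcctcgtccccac
*Cdkn1a*: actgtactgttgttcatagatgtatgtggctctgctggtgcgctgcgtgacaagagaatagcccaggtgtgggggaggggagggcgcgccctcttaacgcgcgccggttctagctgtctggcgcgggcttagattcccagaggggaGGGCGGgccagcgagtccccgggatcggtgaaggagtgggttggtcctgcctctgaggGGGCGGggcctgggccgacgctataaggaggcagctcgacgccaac
The first bases of the GC boxes lay at positions -152 and -18 in *Ccnd3* and at -104 and -46 in *Cdkn1a*, counted back from the start site. A GC box was found in 6 of the 8 windows and in 32.7% of 32851 windows of the same length over all genes. The E-box CACGTG was found in *Cdk6* and *Cdk4* (6.02% of all windows), TATAAA in *Cdk6* (12.4%) and the TCF/LEF letters CTTTGAA or CTTTGAT in *Cdk4* (7.48%), also on both strands. The E2F letters TTCGCGC and TTGGCGC (3.14% of all windows) and the AP-1 letters TGACTCA (4.46%) were in 0 of the 8. These matches describe letters and not bound sites.

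The make-up of the D-type cyclins was computed as the share of each in their summed TPM in a library. *Ccnd1* made up 61.6%, 56.1% and 52.3% of the sum in control libraries and 35.7%, 46.4% and 35.6% in cKO libraries. The groups did not overlap, with means of 56.7 ± 4.65% and 39.2 ± 6.21% (SD, n = 3). The share of *Ccnd3* was 19.2 ± 2.52% and 32.2 ± 6.52%, again without overlap, and that of *Ccnd2* was 24.2 ± 2.21% and 28.6 ± 3.42% with overlap. The sum itself ranged from 394 to 502 TPM in control and from 360 to 496 TPM in cKO libraries, so the groups overlapped in the total. In each control library there was 2.40 to 3.67 times as much *Ccnd1* as *Ccnd3*, compared with 0.922 to 1.80 times in cKO libraries. These shares use the values compared above and are given without a test.

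**Figure D3:**
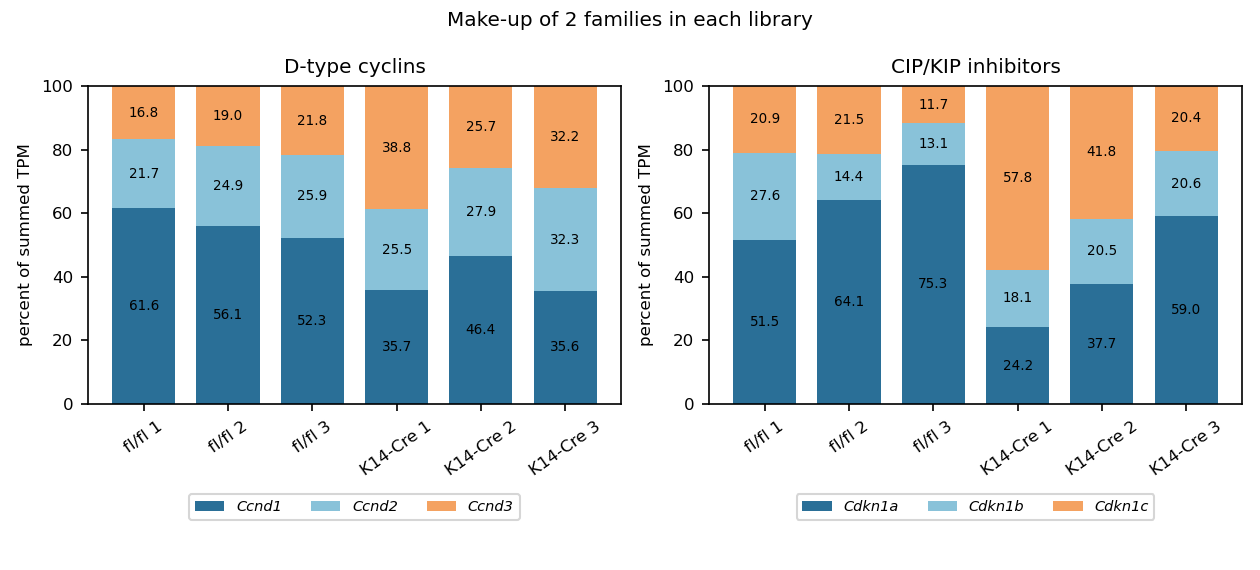
Share of each D-type cyclin (left) and each CIP/KIP inhibitor (right) in the summed TPM of its family, in percent, for the 3 control (fl/fl) and 3 cKO (K14-Cre) libraries. *Ccnd1* held at least 52.3% of the D-type cyclins in the former and at most 46.4% in the latter, whereas the shares of all 3 inhibitors overlapped.

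The E-type cyclins, which act late in G1 with CDK2, were expressed at low levels and their groups overlapped. *Ccne1* measured 15.7, 17.8 and 12.3 TPM in control and 14.9, 16.2 and 6.16 TPM in cKO libraries. *Ccne2* measured 9.68, 9.15 and 6.72 TPM and 6.86, 9.97 and 5.62 TPM, respectively. In both groups and for both genes replicate 3 was the lowest library. The log2 fold change of *Ccne1* was −0.36 (SE 0.33, adjusted p = 0.531 by edgeR) and that of *Ccne2* −0.28 (SE 0.26, adjusted p = 0.543 by edgeR). Without cKO replicate 3 the value was −0.05 for *Ccne1* and −0.11 for *Ccne2*, and without cKO replicate 2 it was −0.60 and −0.54 (adjusted p = 0.366 and 0.222 by edgeR). *Ccne1* held 64.2 ± 2.14% of the E-type TPM in control and 60.9 ± 8.16% in cKO libraries.

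Of the kinases that partner the D-type cyclins, *Cdk4* made up nearly all of the RNA. It measured 649, 644 and 566 TPM in control and 585, 765 and 524 TPM in cKO libraries. The range of cKO enclosed that of the controls, and the log2 fold change was −0.06 (SE 0.16, adjusted p = 0.834 by edgeR). *Cdk6* measured 5.18, 4.72 and 2.72 TPM in control and 10.6, 5.49 and 3.82 TPM in cKO libraries. It was higher in all 3 pairs but the groups overlapped, and edgeR put the log2 fold change at 0.58 (SE 0.35) with an adjusted p of 0.349, or 0.0917 with the replicate block. Without cKO replicate 1 the log2 fold change was 0.16. *Cdk4* held 99.2% to 99.5% of the summed TPM of both kinases in control and 98.2% to 99.3% in cKO libraries.

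Among the CIP/KIP inhibitors, *Cdkn1a* was lower and *Cdkn1c* higher in cKO libraries on average, and *Cdkn1b* differed by less than its spread. *Cdkn1a*, which encodes p21 and is a target of p53, measured 181, 380 and 521 TPM in control and 115, 155 and 310 TPM in cKO libraries. The groups overlapped, since replicate 3 of cKO was above replicate 1 of control, and in both groups the level was lowest in replicate 1 and highest in replicate 3. The means were 361 ± 171 and 193 ± 103 TPM (SD, n = 3), and the log2 fold change in the edgeR fit was −0.94 (SE 0.51, adjusted p = 0.300). Within the pairs the CPM ratios were 0.570, 0.421 and 0.568. With the replicate block the log2 fold change was −0.96 (SE 0.14), with an adjusted p of 0.0146 by edgeR and 1.29e-06 by DESeq2. Without control replicate 3 the log2 fold change was −0.52, and without cKO replicate 3 it was −1.52.

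*Cdkn1c*, an imprinted gene that encodes p57, measured 73.6, 127 and 80.7 TPM in control and 275, 172 and 107 TPM in cKO libraries. Replicates 1 and 2 of the latter were above all controls and replicate 3 was not. The log2 fold change was 0.90 (SE 0.31), with an unadjusted p of 0.0220 and an adjusted p of 0.142 by edgeR, and the adjusted p by DESeq2 was 0.0428. Without cKO replicate 1 it was 0.58. *Cdkn1b*, encoding p27, measured 97.02, 85.7 and 90.4 TPM and 86.0, 84.2 and 108 TPM, and the groups overlapped (log2 fold change −0.03, SE 0.17, adjusted p = 0.942 by edgeR). *Cdkn1a* made up 51.5% to 75.3% of the summed TPM of the 3 inhibitors in control and 24.2% to 59.0% in cKO libraries. The share of *Cdkn1c* was 11.7% to 21.5% and 20.4% to 57.8%. There was more *Cdkn1a* than *Cdkn1c* in every library except replicates 1 and 2 of cKO, where the ratio was 0.418 and 0.903.

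The other genes of the G1 machinery were taken as lists by role, and their counts were read against 11.6% of all genes lower and 13% higher at an unadjusted p of at most 0.05 and a median log2 fold change over all genes of −0.00. Of 14 RB and E2F proteins, 5 were lower and 1 higher at that p, with a median log2 fold change of −0.16. *E2f3*, an activator of replication genes, was at 45.9 ± 2.34 CPM in control and 34.1 ± 3.66 CPM in cKO libraries (log2 fold change −0.43, adjusted p = 0.113 by edgeR). *Tfdp2*, a partner of E2F on DNA, was higher without overlap, at 54.8 ± 4.27 and 80.6 ± 5.21 CPM (log2 fold change 0.56, adjusted p = 0.0674 by edgeR and 0.0409 with the replicate block). The 5 lower genes became 1 without control replicate 2 (9.56% of all genes lower) or without control replicate 3 (6.75%). They became 2 without control replicate 1 (7.99%) or without cKO replicate 1 (9.26%). With the block, 1 gene had an adjusted p of at most 0.05 in each direction, against 5.43% of all genes higher and 4.44% lower. The lower one was *Rb1*, which encodes RB and was named after its values were seen (blocked log2 fold change −0.86, adjusted p = 0.0146 by edgeR). Its groups overlapped, and without the block its adjusted p was 0.199 by edgeR and 0.115 by DESeq2.

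The INK4 inhibitors bind CDK4 and CDK6 and keep D-type cyclins away from them. *Cdkn2b* (p15) measured 4.08, 1.33 and 3.60 CPM in control and 1.58, 0.755 and 0.989 CPM in cKO libraries, with overlap between groups (log2 fold change −1.43, adjusted p = 0.152 by edgeR). *Cdkn2d* (p19) was higher without overlap, at 12.2 ± 0.854 and 16.2 ± 2.6 CPM (log2 fold change 0.41, adjusted p = 0.217 by edgeR). *Cdkn2c* (p18) overlapped between groups (log2 fold change 0.10), and *Cdkn2a*, at or below 0.127 CPM in every library, was not tested. Of the 3 tested, 1 had an unadjusted p of at most 0.05 by edgeR, *Cdkn2b*, and 0 passed after adjustment in either edgeR fit or by DESeq2.

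Among 6 genes for CDK2, its activators and the CDK-activating kinase, an unadjusted p of 0.05 or less was seen for 0 by edgeR and 0 an adjusted p of at most 0.05 by DESeq2. The lowest p belonged to *Ccnh*, the cyclin of the activating kinase (log2 fold change −0.28, adjusted p = 0.232 by edgeR), and *Cdc25a*, the phosphatase that activates CDK2 (−0.27, adjusted p = 0.323 by edgeR). Of 10 tested genes for ubiquitin ligases that act on G1 proteins, 1 was lower at an unadjusted p of at most 0.05, *Fbxw7*, whose product marks cyclin E for breakdown (log2 fold change −0.44, adjusted p = 0.148 by edgeR). *Cks1b*, a cofactor in the breakdown of p27, followed with a log2 fold change of 0.21 (adjusted p = 0.406 by edgeR).

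Of 7 upstream transcription factors, *Foxo1* fell in cKO libraries. It is known to raise transcription of *Cdkn1b* and is held out of the nucleus by AKT. It measured 292, 294 and 351 CPM in control and 139, 159 and 175 CPM in cKO libraries, without overlap. The log2 fold change was −0.98 (SE 0.14), with an adjusted p of 0.0498 by edgeR and 0.00952 with the replicate block, just short of a log2 fold change of 1. By edgeR without the block 0.368% of all genes passed and were lower. The call was kept in 8 of 17 alternative settings, with an adjusted p between 2.08e-09 and 0.210, and in 1 of the 6 that leave out a library (the one without cKO replicate 3), while the log2 fold change stayed between −1.05 and −0.88. *Mycn* measured 22.0 ± 0.681 and 27.6 ± 2.45 CPM (log2 fold change 0.32, adjusted p = 0.190 by edgeR).

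Downstream of the G1 machinery, 21 of 22 E2F targets of S phase were lower on average, against 7139 of all 14131 genes. The median log2 fold change of the targets was −0.26, but 2 had an unadjusted p of at most 0.05 (9.09%, against 11.6% of all genes lower). These were *Cdc6*, a licensing factor of replication origins (13.8 ± 0.890 and 7.71 ± 3.52 CPM, log2 fold change −0.84, adjusted p = 0.186 by edgeR), and *Pola1*, the catalytic subunit of DNA polymerase alpha (24.1 ± 3.92 and 15.6 ± 4.42 CPM, −0.63, adjusted p = 0.180 by edgeR). The count depended on single libraries, with 13 lower genes (59.1%) without cKO replicate 2, where 8.83% of all genes were lower, 1 without control replicate 3 and 0 without any other single library. The list median was −0.50 without cKO replicate 2, −0.36 without control replicate 3 and −0.07 without cKO replicate 3. The summed TPM of the list was 1388, 1300 and 974 in control and 1039, 1453 and 718 in cKO libraries, which overlapped, and as for *Ccne1* and *Ccne2* replicate 3 was the lowest of each group. None of 20 G2/M genes had an unadjusted p as low as 0.05 by edgeR (0 of 20) or passed by DESeq2 (0 of 20), and the median log2 fold change was −0.06. Without control replicate 3, 3 of the 20 (15%) were lower at that p, against 6.75% of all genes, and the median was −0.26, whereas it was 0.13 without control replicate 1. The genes with the lowest p were *Bub1b* (−0.35, adjusted p = 0.347 by edgeR) and *Cdca8* (−0.27, adjusted p = 0.352 by edgeR), both of mitosis.

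**Figure D4:**
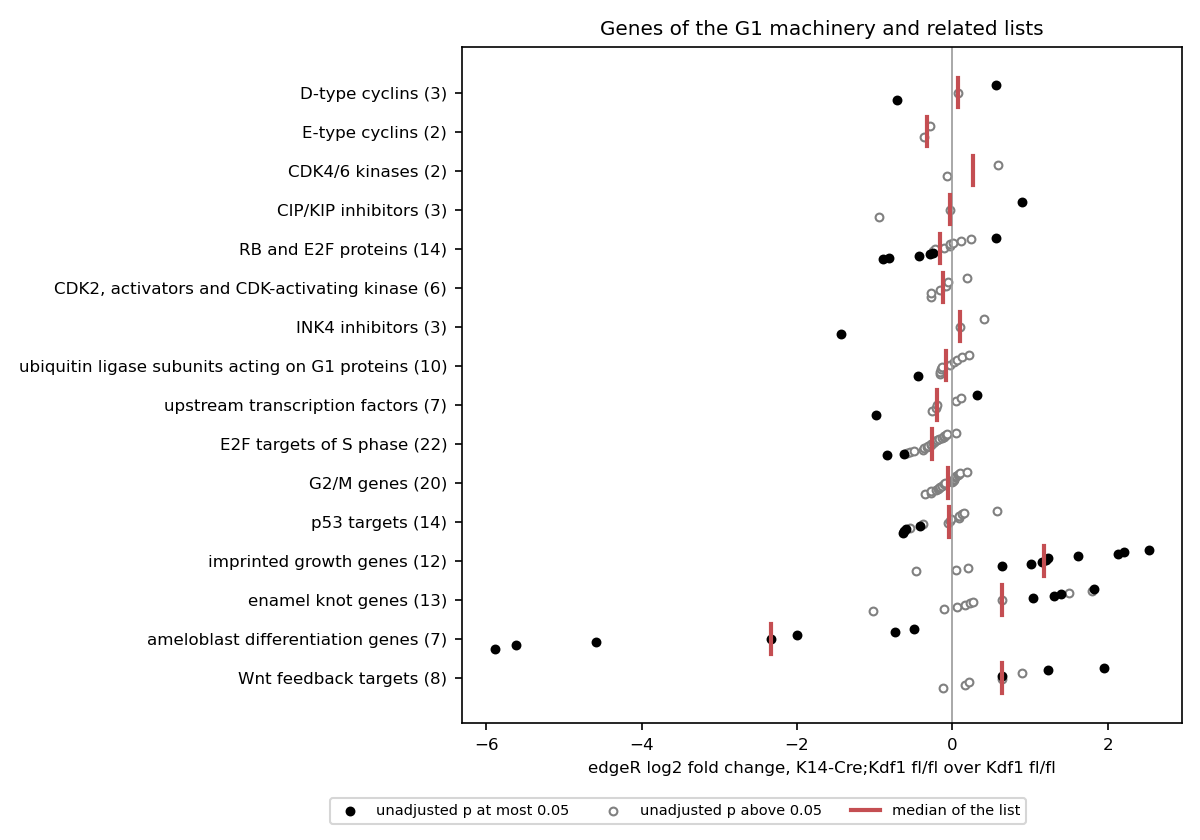
Log2 fold change by edgeR of each tested gene in the lists named at the left (number tested in brackets), cKO over control. Filled points have an unadjusted p of at most 0.05, open points do not, and red bars are list medians, which lie at −2.33 for ameloblast differentiation genes and 1.18 for imprinted growth genes and between −0.33 and 0.64 for the others.

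Because *Cdkn1a* is induced by p53 and marks differentiating epithelium, genes of both programmes were set beside it. Of 14 tested p53 targets, 4 were lower and 0 higher at an unadjusted p of at most 0.05, with a median log2 fold change of −0.04. They included *Plk2* (62.8 ± 13.0 and 40.3 ± 7.30 CPM, log2 fold change −0.64, adjusted p = 0.124 by edgeR and 0.0244 with the replicate block) and *Ccng1* (60.6 ± 5.86 and 45.4 ± 5.21 CPM, −0.42, adjusted p = 0.129 by edgeR). Without control replicate 3 or without cKO replicate 2, 1 of the list was lower (6.75% and 8.83% of all genes). Without control replicate 1, 2 were lower (7.99%). All 7 tested ameloblast differentiation genes were lower at an unadjusted p of at most 0.05. With the replicate block, 6 had an adjusted p of at most 0.05, against 4.44% of all genes called lower, and 0 had one without it. *Enam*, encoding the enamel protein enamelin, measured 88.5, 964 and 2323 CPM in control and 13.1, 14.03 and 41.7 CPM in cKO libraries (log2 fold change −5.62, adjusted p = 0.0692 by edgeR and 0.0210 with the block). *Mmp20*, the protease that trims enamel proteins, measured 26.9, 93.3 and 207 CPM and 0.253, 2.01 and 11.4 CPM (−4.59, adjusted p = 0.0884 by edgeR and 0.00578 with the block).

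The summed TPM of the 9 listed ameloblast genes was 6329, 18776 and 36840 in replicates 1, 2 and 3 of control and 1031, 1290 and 2434 in those of cKO. *Cdkn1a* was lowest in replicate 1 and highest in replicate 3 of each group, as were these sums. The link between them was not tested.

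**Figure D5:**
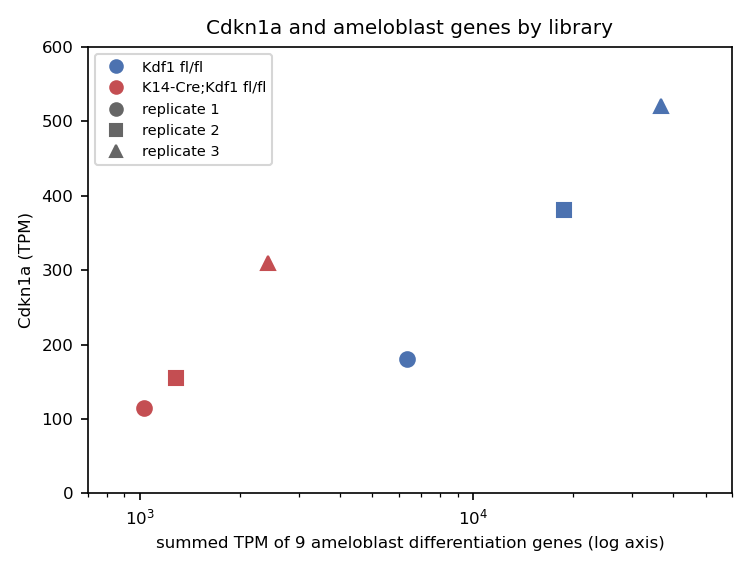
*Cdkn1a* in TPM against the summed TPM of 9 ameloblast differentiation genes (log axis) in the 6 libraries, with colour for genotype and shape for replicate number. Within each genotype both values are lowest in replicate 1 and highest in replicate 3, and at each replicate number both are lower in cKO.

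*Cdkn1c* belongs to a set of imprinted genes known to be expressed together in growing embryonic tissue. Of 12 other imprinted growth genes tested, 9 were higher and 0 lower by the same unadjusted threshold. The list median was 1.18 on the log2 scale. The count with an adjusted p of at most 0.05 was 0 by edgeR, 7 with the replicate block (5.43% of all genes higher) and 8 by DESeq2 (7.39%). *Sgce* measured 17.7 ± 4.89 and 40.9 ± 8.90 CPM (log2 fold change 1.21, adjusted p = 0.0679 by edgeR and 0.0105 with the block). *Plagl1*, a transcription factor of this set, measured 71.9, 115 and 80.1 CPM in control and 435, 221 and 160 CPM in cKO libraries (1.61, adjusted p = 0.0803 by edgeR). As for *Cdkn1c*, its highest library was replicate 1 of cKO. Without cKO replicate 1 its log2 fold change was 1.11 (adjusted p = 0.118 by edgeR), and 6 of the 12 genes were higher, against 10.6% of all genes. The 9 higher genes became 6 without cKO replicate 2 (12.7% of all genes) and 5 without control replicate 3 (6.91%).

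Markers of cell types were counted in the same way. At an unadjusted p of at most 0.05, 5 of 8 endothelial, 4 of 8 immune and 9 of 13 dental papilla and odontoblast markers were higher in cKO libraries, with 1 of the last lower, and 7 of 12 dental epithelium markers were lower. Over all genes 13% were higher and 11.6% lower at that p. The papilla and odontoblast list was mixed, with 10 genes higher and 3 lower on average. The 3 were *Dspp* (log2 fold change −3.45, adjusted p = 0.152 by edgeR, without overlap), *Dmp1* (−1.51) and *Col1a1* (−0.46), both with overlap. The summed TPM was 152 to 206 against 204 to 606 for endothelium, 47.9 to 98.0 against 68.3 to 272 for immune cells and 2018 to 7072 against 4175 to 4857 for papilla and odontoblasts. For dental epithelium it was 16490 to 47388 against 6132 to 10296, a list that shares *Amelx*, *Ambn* and *Sp6* with the ameloblast genes. No marker of these 4 lists was at 0 in every library. *Krt14*, an epithelial marker named after its values were seen, was present in every library but lower in cKO without overlap. It measured 1265, 1121 and 2315 CPM in control and 455, 399 and 811 CPM in cKO libraries (log2 fold change −1.50, adjusted p = 0.0842 by edgeR). Of the 12 dental epithelium markers, 11 were lower and 1 higher on average. *Epcam* (−0.05) and *Sox2* (−0.07) were close to the control mean, and the higher one was *Shh* (0.27), all 3 with overlap. Replicate 1 of cKO, the highest for endothelium (606) and immune cells (272), was also the highest for *Ccnd3*, *Cdk6* and *Cdkn1c*, whereas in replicate 3 of this group, at 204 and 68.3, *Cdkn1c* was at 107 TPM, within the control range. *Ccnd1* was lower in each of the 3 cKO libraries. The part of these cells in the results was not tested. Of the remaining lists, bone had 3 of 7 genes higher and 1 lower, cartilage 2 and 1 of 3, and neural and Schwann cells 2 and 1 of 5. Keratinised epithelium had 0 and 1 of 3, erythroid cells 0 and 0 of 7 and skeletal muscle 0 and 0 of 1. These counts stand against the same 13% and 11.6% of all genes. The summed TPM of the bone list was 2916 in replicate 1 of cKO and 1198 and 1842 in replicates 2 and 3. In control libraries it was 1184 to 2058.

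As *Ccnd1* is a well-known target of Wnt signalling, its feedback targets were counted. Of 8, 3 were higher and 0 lower at an unadjusted p of at most 0.05, with a median log2 fold change of 0.64. *Axin2*, a brake on beta-catenin, measured 36.3 ± 2.30 and 56.7 ± 14.6 CPM (log2 fold change 0.64, adjusted p = 0.121 by edgeR), and *Sp5* measured 0.453 ± 0.207 and 1.78 ± 0.366 CPM (1.95, adjusted p = 0.0745 by edgeR). *Sp5* was scarce in control, at 0.440, 0.666 and 0.253 CPM, where 3 counts are at most 0.198 CPM. Its log2 fold change was 0.94 to 2.04 over the settings that kept all 6 libraries. The count was 5 without control replicate 2 (11.8% of all genes higher) and 2 without control replicate 3 (6.91%). Of 13 tested enamel knot genes, 4 were higher and 0 lower, with a median log2 fold change of 0.64 that ranged from 0.36 without control replicate 1 to 1.07 without control replicate 2. With the replicate block, 2 passed as higher (5.43% of all genes) and 1 as lower (4.44%). The latter was *Wnt10a*, a Wnt ligand named after its values were seen (blocked log2 fold change −1.11, adjusted p = 0.0203 by edgeR). The groups of *Wnt10a* overlapped, and without the block its adjusted p was 0.273 by edgeR and 0.161 by DESeq2. *Lef1*, the transcription factor that partners beta-catenin, rose and was past the criterion of the study's methods, with 17.8, 20.1 and 16.4 CPM in control and 35.9, 46.4 and 51.7 CPM in cKO libraries (log2 fold change 1.30, SE 0.18, adjusted p = 0.0498 by edgeR and 0.0107 with the replicate block, against 0.177% of all genes that passed and were higher without it). An adjusted p of at most 0.05 was kept for *Lef1* in 7 of 17 alternative settings (6.25e-08 to 0.210), again in 1 of the 6 that leave out a library, the one without cKO replicate 3, with a log2 fold change of 1.20 to 1.497. *Edar*, the ectodysplasin receptor, measured 9.92, 4.42 and 4.80 CPM and 16.5, 15.5 and 35.8 CPM (1.82, adjusted p = 0.0841 by edgeR).

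The genes whose log2 CPM followed *Ccnd1* most closely over the 6 libraries were *Srbd1* (Pearson r = 0.996), *Eif4g2* (r = 0.991) and *Gpn1* (r = 0.991). These correlations describe 6 libraries that share their genotype difference. *Eif4g2* measured 1860, 1651 and 1571 CPM in control and 1376, 1519 and 1273 CPM in cKO libraries. Of the other 9 G1 genes, *Ccne2* followed *Ccnd1* most closely (r = 0.824) and *Ccnd2* least (r = −0.81).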

How the data were processed

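RNA was extracted with TRIzol and total RNA libraries were made with a TruSeq kit, per the labels. The submitters' processing notes name BWA 0.7.12, Picard 2.6.0 and StringTie, with no role or order, and the genome build and annotation are not given in the sources used here. The deposited estimated counts are the authors' reads per gene, with 10.9% to 11.5% of them not whole numbers, depending on the library. The TPM and FPKM values were scaled by the authors for length and depth, and FPKM values served only as another scale for levels.

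Rounding gave whole numbers. The fits used edgeR 4.0.16 in R 4.3.3. Genes were kept by filterByExpr (14131 genes), libraries were scaled by TMM (factors 0.950 to 1.03, also used for CPM), and robust quasi-likelihood fits with two-sided F-tests and Benjamini-Hochberg adjustment were made. An SE is the fold change divided by the square root of F. A count of 0 allows 3 counts, at most 0.198 CPM, for counting error only. The biological coefficient of variation was 25.4%, and with 3 libraries per group p values measure the spread between these libraries, which the labels call biological replicates. TPM levels, shares and orders were described without a test. Between libraries of a group the variance was 36.0 to 76.7 times that of sampling, so none was a duplicate. After removal of the group means, equally numbered libraries correlated at 0.135, 0.324 and 0.499, and unequally numbered ones at −0.410 to 0.144, the highest being control 2 with cKO 1. As all 3 equal pairs were over 0.1, the numbers were read as pairs, although that unequal pair was over 0.1 too. The reading rests on the data only, since littermates are named in the methods only for another experiment.

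The 10 genes were found by symbol alone, but the choice of this set and of the lists was made with earlier results of these data known. Named were all 10 genes, *Kdf1*, the 2 genes of lowest p in each list (all in lists of up to 4), and the 3 genes most correlated with *Ccnd1*. Any other gene with values given, among them the single cell type markers, was named after its values were seen. Lists whose symbols were not all in the table or past the filter are given by the genes tested. Marker lists were those of dental epithelium, papilla and odontoblasts, endothelium, immune and erythroid cells, bone, cartilage, skeletal muscle, neural and Schwann cells and keratinised epithelium. Promoters are from RefSeq (GRCm38.p6). Alternatives were DESeq2 1.42.0, limma 3.58.1 (voom, and a trend on log2(TPM + 1) and log2(TPM + 0.1)), other scalings and filters, no robust option, the replicate block and each library left out, and list counts without each library were added after seeing the data. The edgeR, DESeq2 and limma fits were tested on simulated counts without the block, and the fits with the block were not.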

Additional observations from a re-analysis of the deposited data

How the results depend on the processing

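No setting placed any of the 10 genes past the criterion. The number past it for cKO against control across all genes, 61, was 7 with DESeq2's size factors in edgeR, 9 with library size alone, 980 by DESeq2, 6 by limma-voom, 103 without a filter, 6 with at least 10 counts in every library, 16 by limma on log2(TPM + 1), 860 with the replicate block in edgeR and 1118 with it in DESeq2. With a single library left out it was 465 without cKO replicate 3, 16 without control replicate 2 and 1 without any of the other 4 libraries (from 1 to 465 in all). Of the 61, 20 were higher, compared with 1 of 7 with DESeq2's size factors and 2 of 9 with library size alone, whereas higher genes were the majority by DESeq2 (714), with the block in edgeR (588) and in DESeq2 (826) and without cKO replicate 3 (329). The cause was not tested.

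The number of the 10 genes with an adjusted p of at most 0.05 was 2 by DESeq2, 2 with the replicate block in edgeR and 3 with it in DESeq2. The log2 fold change of *Ccnd1* passed by DESeq2 (−0.70) and with the block in edgeR (−0.72) and DESeq2 (−0.70), that of *Cdkn1a* with the block in edgeR (−0.96) and DESeq2 (−0.94), and that of *Cdkn1c* by DESeq2 (0.92) and with its block (0.86). *Cdk4* (−0.20 to 0.035) and *Cdkn1b* (−0.18 to 0.094) changed sign when single libraries were left out, and *Cdkn1b* also with library size alone (0.036) and with log2(TPM + 1) and log2(TPM + 0.1), both at 0.020.

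The median log2 fold change ranged from −0.35 to 0.0061 for RB and E2F proteins, from −0.084 to −0.014 for ubiquitin ligase subunits, from −0.23 to 0.039 for upstream transcription factors and from −0.21 to 0.023 for p53 targets with a library left out. With log2(TPM + 1) it was −0.016 for the ubiquitin ligase subunits and −0.094 for the upstream factors, and −0.095 for the latter with log2(TPM + 0.1). *Cdk6*, *Ccne1* and *Ccne2* rested on as few as 303, 94 and 126 reads in a library. *Cdkn2c* changed sign (−0.17 to 0.33) with libraries left out.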
